A study of Homo sapiens with 24 samples.

Results

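The enzymes and electron carriers of fatty acid oxidation were followed in HEK293, a human embryonic kidney cell line that grows as a continuous culture, after addition of the peptide MOTS-c. The set comprised 33 genes, taken as every probe of the array annotated to their symbols. These were 49 of the 47323 probes, and 42 of them were detected often enough to be kept. Each of the 33 genes had at least 1 kept probe, among 13283 genes tested in all. MOTS-c is a short peptide whose reading frame lies inside a ribosomal RNA gene of the mitochondrial genome. The groups were cells given 10 µM MOTS-c in the medium for 4 h, cells given the same dose for 72 h, and control cells given water for 4 h or for 72 h. Each group was measured on 6 Illumina bead arrays, and all 4 groups shared the cell line and the serum-containing medium.

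Long-chain fatty acids are activated to acyl-CoA by acyl-CoA synthetases, handed to carnitine at the outer mitochondrial membrane, and released again as acyl-CoA in the matrix. There an acyl-CoA dehydrogenase, a hydratase, a hydroxyacyl-CoA dehydrogenase and a thiolase shorten the chain in repeated rounds. The dehydrogenases pass their electrons to the electron transfer flavoprotein, a dimer of the ETFA and ETFB products, from which ETFDH delivers them to ubiquinone in the respiratory chain. Peroxisomes run a related pathway for very long and branched chains.

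Levels are log2 values of the background-corrected, quantile-normalised probe intensity, and a log2 fold change is the MOTS-c mean minus the control mean. The threshold for a call was an adjusted p of 0.05 in limma (Benjamini-Hochberg over all 13283 genes, n = 6 arrays per group). Mean probe intensity per array lay between 399 and 629, between 20719 and 23405 probes were detected per array, and the mean correlation of an array with the others of its group lay between 0.99 and 0.996. The number of arrays limits the precision. Nothing in the labels says that the arrays of a group came from separate cultures, and the spread between these samples, which is all that the p-values measure, may be technical. No chip or scan date is given in the sources used here, so a chip shared within a group cannot be told apart from the group. Of the 6 markers listed for HEK293, NEFL, NEFM, INA, LHX1 and VIM were detected on all 24 arrays, and PAX2 on 3 of 6 MOTS-c and 1 of 6 control arrays at 72 h and on 2 of 6 in each group at 4 h, whereas 0 of 5 markers of striated muscle and 0 of 5 markers of kidney tubule were kept. Of the markers of other cell types, 2 of 5 for hepatocytes, 2 of 4 for adipocytes and 2 of 5 for leukocytes were kept. So were 1 of 4 for endothelium, 4 of 5 for fibroblasts and 3 of 5 for keratinocytes and carcinoma. Those 3 were KRT18, EPCAM and CDH1, whereas KRT5 and KRT14 were not kept. Of the kept markers of other cell types, 0 were higher and 3 lower with MOTS-c at 72 h, against 22.1% and 22.9% of all genes. VWF, among the lower ones, was detected on 6 of 6 control arrays at 72 h and on 0 in each other group. It was thus kept only through the group where it was high. For striated muscle, kidney tubule and leukocytes only 4 of the 5 markers had an annotated probe, so the remaining marker could not be kept. The summed linear level of the HEK293 markers lay between 13699 and 14213 on the 72 h MOTS-c arrays and between 11914 and 13541 on the 72 h control arrays. VIM was by far the brightest of them. VIM (log2 fold change 0.21) and LHX1 (0.21) were called higher and NEFM (-1.01) and NEFL (-0.32) lower at 72 h. The part of these shifts in the results was not tested. In RNA of whole cultures, fewer expressing cells and less RNA per cell cannot be told apart.

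The comparison at 72 h asks how the pathway stood after prolonged exposure to the peptide. Of the 33 genes, 13 were higher with MOTS-c, 5 were lower and 15 were not called. The genes that rose came from chain activation, the acyl-CoA dehydrogenases, the later matrix steps, the auxiliary enzymes, the electron transfer flavoprotein and the peroxisome, with log2 fold changes between 0.16 and 0.62, and ACADSB at the limit of detection. The 5 that fell were CPT1C, ACAD9, ACAD10, ACAD11 and ACOT2, with values between -0.86 and -0.31. The called share was 54.5% of the set, against 45.1% of all genes tested. By direction, 39.4% of the set was called higher against 22.1% of all genes, and 15.2% was called lower against 22.9% of all genes. The median log2 fold change of the 33 genes was 0.11, beside a median of 0.0062 over all genes tested. Without control replicate 4 of 72 h the median of the 33 genes was 0.056. All 6 MOTS-c arrays lay above all 6 control arrays for 7 of the 33 genes, as they did for 9.35% of all genes. They lay below all control arrays for 5 of the 33 genes, as for 13.1% of all genes. The set was put together with earlier results of these data known, so these shares describe it and test nothing.

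**Figure D1:**
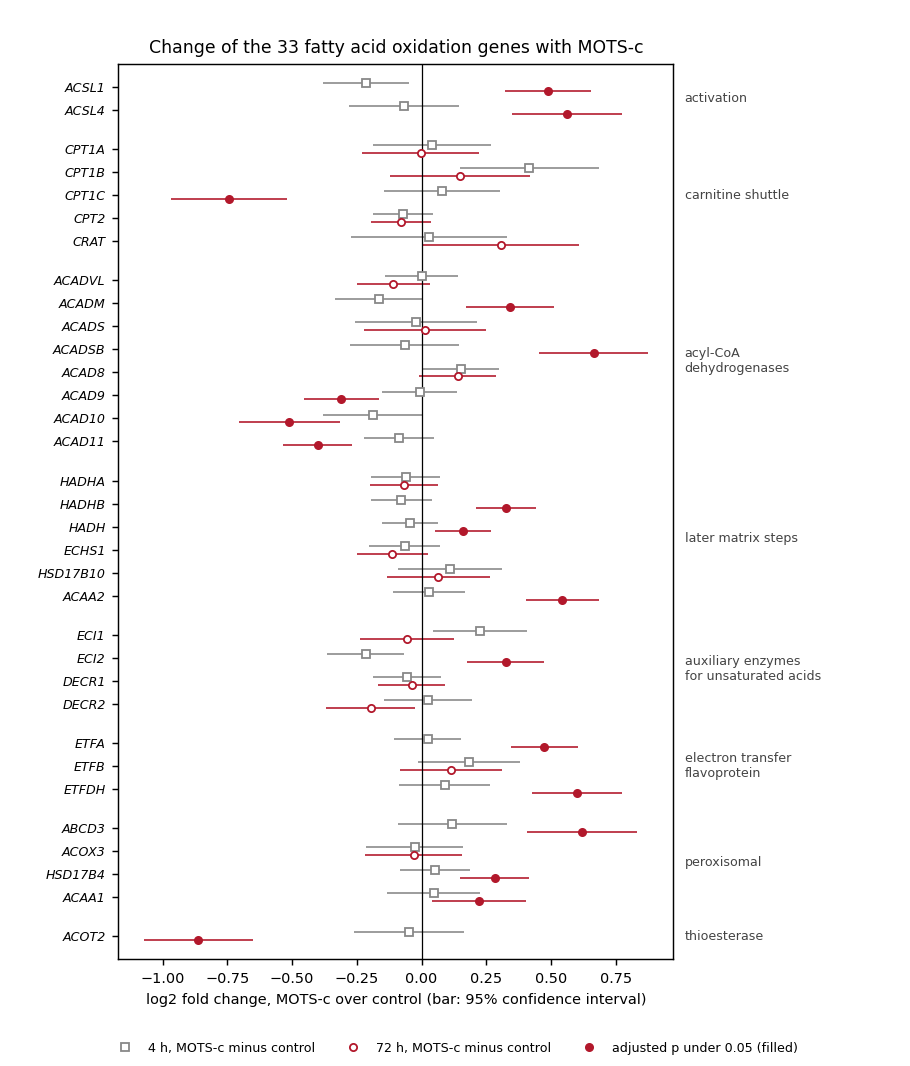
Log2 fold change of MOTS-c over control (horizontal axis, with its 95% confidence interval) for each of the 33 genes, grouped by role, with the 4 h comparison as grey squares and the 72 h comparison as red circles. Filled symbols passed the adjusted threshold: 18 genes at 72 h, 13 to the right of 0 and 5 to the left, and 0 genes at 4 h.

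**Figure D2:**
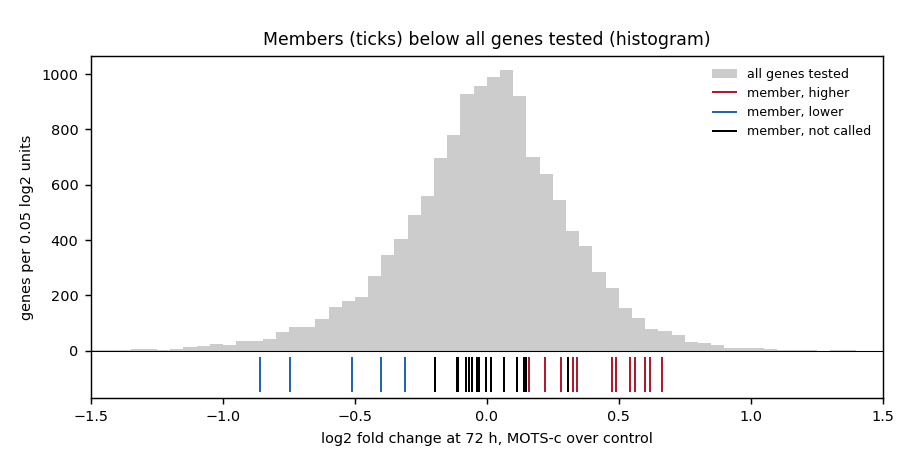
Log2 fold change of MOTS-c over control at 72 h (horizontal axis) as a histogram of all 13283 genes tested (vertical axis, genes per bin of 0.05), with a tick below for each of the 33 genes. Red ticks rose, blue ticks fell and black ticks were not called; 14 genes beyond 1.5 in either direction are not drawn.

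Chain activation was represented by 2 long-chain acyl-CoA synthetases, and both rose. ACSL1, which activates saturated and monounsaturated chains, lay between 8.80 and 9.19 with a median of 9.01 on the 72 h MOTS-c arrays, against 8.36 to 8.69 with a median of 8.52 on the control arrays. The groups did not overlap, and the log2 fold change was 0.49 (SE 0.080, limma adjusted p = 1.70e-05), a 1.40-fold higher level. ACSL4, which prefers arachidonic and other polyunsaturated acids, lay between 9.46 and 10.03 (median 9.77) with MOTS-c and between 8.88 and 9.66 (median 9.17) in controls. The highest control array lay among the MOTS-c arrays, and the log2 fold change was 0.56 (SE 0.10, limma adjusted p = 7.54e-05). This result came from the brighter of its kept probes. The other kept ACSL4 probe, which is annotated to another transcript accession, gave -0.069 (SE 0.16, limma adjusted p = 0.758 over all probes). That probe was dim, with a mean level of 5.91 against 9.80 for the brighter probe, and was detected on 23 of 24 arrays. With the mean of both probes the log2 fold change was 0.25 and the call was lost (limma adjusted p = 0.0770).

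The carnitine shuttle had 5 genes, of which 1 fell and 4 were not called. CPT1C, the carnitine palmitoyltransferase form of neurons, which resides in the endoplasmic reticulum and has little transferase activity, lay between 7.82 and 7.88 (median 7.86) on the MOTS-c arrays of 72 h. Control arrays lay between 8.08 and 8.85 (median 8.65). All MOTS-c arrays were below all control arrays, and the MOTS-c arrays were tightly grouped, with an SD of 0.03 against 0.27 in controls. The log2 fold change was -0.74 (SE 0.11, limma adjusted p = 3.36e-06), a 1.68-fold lower level. The other members were not called. CPT1A, the liver form that commits acyl groups to the mitochondrion, had a log2 fold change of -0.0038 (95% interval -0.23 to 0.22), and CPT1B, the muscle form, had 0.15 (-0.12 to 0.42). CPT1A was dim, with group medians between 5.53 and 5.79, and was detected on 5 of 6 MOTS-c arrays and 6 of 6 control arrays at 72 h. CPT2, which reforms acyl-CoA inside the matrix, had -0.079 (-0.19 to 0.036). CRAT, the carnitine acetyltransferase that buffers short acyl groups, lay between 6.43 and 6.84 (median 6.62) with MOTS-c and between 6.12 and 6.58 (median 6.34) in controls. Its log2 fold change of 0.31 (SE 0.15, limma adjusted p = 0.0902) did not pass, though all 6 MOTS-c arrays lay above the control mean; it passed without MOTS-c replicate 3 of 4 h (limma adjusted p = 0.0250).

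Among 8 acyl-CoA dehydrogenases, which catalyse the first oxidation of each round, 2 rose, 3 fell and 3 were not called. ACADM, the medium-chain enzyme, lay between 10.66 and 11.15 (median 10.85) with MOTS-c at 72 h and between 10.39 and 10.84 (median 10.51) in controls. The ranges overlapped, all 6 MOTS-c arrays lay above the control mean, and the log2 fold change was 0.34 (SE 0.083, limma adjusted p = 0.00135). A dimmer ACADM probe gave 0.28 (limma adjusted p = 0.0209 over all probes). ACADSB, which acts on short branched acyl-CoA from isoleucine, lay between 5.40 and 6.22 (median 5.97) with MOTS-c and between 5.14 and 5.5 (median 5.24) in controls. It was detected above background on 5 of 6 MOTS-c arrays and on 1 of 6 control arrays, so its log2 fold change of 0.66 (SE 0.10, limma adjusted p = 7.34e-06) was measured at the limit of detection. Over the alternatives and left-out arrays it ran from 0.40, with a background offset of 50, to 0.77, without MOTS-c replicate 1 of 72 h, and it passed in each that gave a value.

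The 3 dehydrogenases that fell were ACAD9, ACAD10 and ACAD11. ACAD9 assists assembly of respiratory complex I besides its dehydrogenase activity. Its levels lay between 8.96 and 9.27 (median 9.18) on the 72 h MOTS-c arrays and between 9.29 and 9.56 (median 9.5) on the control arrays, with a log2 fold change of -0.31 (SE 0.071, limma adjusted p = 0.000779). ACAD10 and ACAD11 carry a kinase-like domain beside the dehydrogenase fold, and ACAD11 acts on long chains and on hydroxylated acids. ACAD10 lay between 7.07 and 7.44 (median 7.26) with MOTS-c and between 7.53 and 8.0 (median 7.77) in controls, a log2 fold change of -0.51 (SE 0.095, limma adjusted p = 7.80e-05). ACAD11 lay between 9.38 and 9.64 (median 9.52) with MOTS-c and between 9.73 and 10.09 (median 9.91) in controls, a log2 fold change of -0.40 (SE 0.065, limma adjusted p = 1.50e-05). For each of these 3 genes every MOTS-c array was below every control array. ACAD11 overlaps a read-through transcript in the RefSeq annotation, and which transcript its probe reports was not tested. The dehydrogenases that were not called were ACADVL, the very-long-chain enzyme, with -0.11 (95% interval -0.25 to 0.031), ACADS, the short-chain enzyme, with 0.014 (-0.22 to 0.25), and ACAD8, the isobutyryl-CoA dehydrogenase of valine breakdown, with 0.14 (-0.0083 to 0.29). ACAD8 passed without control replicate 1 of 72 h (limma adjusted p = 0.0436).

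ACAD9 was the gene with the most matches to the motifs searched, so the 250 bases before its start are shown. They are chr3:128879370-128879619 on the plus strand of GRCh38.p14, from RefSeq, with both NRF-1 matches, the CRE match and the E-box match in capitals, in the order NRF-1, CRE, E-box, NRF-1:
ACAD9: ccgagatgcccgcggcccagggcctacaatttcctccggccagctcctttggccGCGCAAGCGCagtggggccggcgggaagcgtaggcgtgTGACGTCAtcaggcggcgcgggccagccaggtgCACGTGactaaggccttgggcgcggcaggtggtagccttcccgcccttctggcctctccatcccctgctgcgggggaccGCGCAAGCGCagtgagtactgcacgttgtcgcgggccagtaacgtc

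The later matrix steps had 6 genes, of which 3 rose, 0 fell and 3 were not called. HADHB, the beta subunit of the mitochondrial trifunctional protein that carries its thiolase, lay between 9.11 and 9.30 (median 9.22) with MOTS-c at 72 h and between 8.81 and 8.96 (median 8.89) in controls. The groups did not overlap, and the log2 fold change was 0.33 (SE 0.057, limma adjusted p = 3.53e-05). HADHA, the alpha subunit of the same complex, which carries the hydratase and dehydrogenase, lay between 8.36 and 8.63 (median 8.44) with MOTS-c and between 8.39 and 8.67 (median 8.57) in controls. Its log2 fold change was -0.067 (95% interval -0.20 to 0.065), and its groups overlapped almost fully. The change of HADHB exceeded that of HADHA by 0.39 on the log2 scale (two-sided exact permutation test over the 12 arrays of 72 h, p = 0.00216, the smallest that 924 splits can give; adjusted p = 0.00866 over 4 such tests). At 4 h the same difference was -0.016 (exact permutation p = 0.861; adjusted p = 0.861). The pair was chosen for this test after the values had been seen.

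HADHA and HADHB are neighbours on chromosome 2, transcribed away from each other, with 306 bases between their starts. Both upstream windows lie in that stretch, and the 250 bases before the HADHB start are shown. They are chr2:26244689-26244938 on the plus strand of GRCh38.p14, from RefSeq, and hold no match to a motif searched:
HADHB: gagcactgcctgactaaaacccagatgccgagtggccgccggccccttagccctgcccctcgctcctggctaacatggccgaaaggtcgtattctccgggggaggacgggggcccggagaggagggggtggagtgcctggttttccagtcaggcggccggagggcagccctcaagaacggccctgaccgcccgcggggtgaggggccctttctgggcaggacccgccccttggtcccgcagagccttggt

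ACAA2, the mitochondrial thiolase for medium chains, had the smallest adjusted p among the genes that rose. It lay between 10.25 and 10.38 (median 10.31) on the 72 h MOTS-c arrays and between 9.57 and 10.03 (median 9.73) on the control arrays. With no overlap between groups, the log2 fold change was 0.54 (SE 0.068, limma adjusted p = 3.46e-07), a 1.46-fold higher level. HADH, the hydroxyacyl-CoA dehydrogenase for medium and short chains, lay between 11.33 and 11.46 (median 11.41) with MOTS-c and between 11.12 and 11.37 (median 11.26) in controls. Its change was the smallest that passed, with a log2 fold change of 0.16 (SE 0.053, limma adjusted p = 0.0147). ECHS1, the short-chain enoyl-CoA hydratase, had -0.11 (95% interval -0.25 to 0.024), and HSD17B10, which acts in isoleucine breakdown and in mitochondrial tRNA processing, had 0.064 (-0.13 to 0.26).

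Of the 4 auxiliary enzymes that make unsaturated chains accessible to the cycle, 1 rose and 3 were not called. ECI2, an enoyl-CoA isomerase of mitochondria and peroxisomes, lay between 11.57 and 11.84 (median 11.64) with MOTS-c and between 11.07 and 11.52 (median 11.38) in controls at 72 h. No array overlapped, and the log2 fold change was 0.33 (SE 0.072, limma adjusted p = 0.000598). A further kept ECI2 probe gave 0.19 (limma adjusted p = 0.0212 over all probes). ECI1, the mitochondrial isomerase, had a log2 fold change of -0.056 (95% interval -0.24 to 0.13), and DECR1, the mitochondrial dienoyl-CoA reductase, had -0.039 (-0.17 to 0.092). DECR2, the peroxisomal dienoyl-CoA reductase, lay between 8.28 and 8.57 (median 8.36) with MOTS-c and between 8.40 and 8.78 (median 8.60) in controls, a log2 fold change of -0.20 (SE 0.083, limma adjusted p = 0.0563). All 6 of its MOTS-c arrays were below the control mean, and it passed in 5 of 24 fits that left out 1 array, which were those without control replicate 1 or 5 of 4 h, control replicate 4 or 5 of 72 h, or MOTS-c replicate 1 of 72 h (limma adjusted p between 0.0250 and 0.0411).

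The electron transfer flavoprotein and its oxidoreductase had 3 genes, of which 2 rose. ETFA, the alpha subunit, lay between 12.19 and 12.39 (median 12.25) on the 72 h MOTS-c arrays and between 11.65 and 11.93 (median 11.78) on the control arrays. The groups were separate, with a log2 fold change of 0.47 (SE 0.063, limma adjusted p = 8.99e-07), a 1.39-fold higher level. ETFDH, the membrane oxidoreductase that passes electrons to ubiquinone, lay between 8.60 and 8.71 (median 8.63) with MOTS-c and between 7.62 and 8.36 (median 8.12) in controls. Its log2 fold change was 0.60 (SE 0.085, limma adjusted p = 2.25e-06), a 1.52-fold higher level, again without overlap. ETFDH overlaps PPID in the RefSeq annotation. The control arrays of ETFDH were spread more widely than the MOTS-c arrays, with SDs of 0.04 for MOTS-c and 0.26 for controls.

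ETFB, the beta subunit, did not change detectably. It lay between 11.43 and 11.77 (median 11.63) with MOTS-c and between 11.03 and 11.69 (median 11.58) in controls, with a log2 fold change of 0.11 (SE 0.096, limma adjusted p = 0.362, 95% interval -0.085 to 0.31). A dimmer ETFB probe gave 0.020. The change of ETFA exceeded that of ETFB by 0.36 at 72 h, which did not pass after adjustment (two-sided exact permutation test, p = 0.0281; adjusted p = 0.0563 over 4 tests). At 4 h the difference was -0.16 (exact permutation p = 0.104, adjusted p = 0.139). This pair was also chosen for the test after the values had been seen.

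The 250 bases before the start of ETFA and of ETFB are shown to set the subunit that was called at 72 h beside the one that was not. They are chr15:76311470-76311719 and chr19:51366389-51366638, both on the minus strand of GRCh38.p14, from RefSeq. ETFB has a further listed start that is not shown, and the capitals mark the NRF-1 match of ETFB:
ETFA: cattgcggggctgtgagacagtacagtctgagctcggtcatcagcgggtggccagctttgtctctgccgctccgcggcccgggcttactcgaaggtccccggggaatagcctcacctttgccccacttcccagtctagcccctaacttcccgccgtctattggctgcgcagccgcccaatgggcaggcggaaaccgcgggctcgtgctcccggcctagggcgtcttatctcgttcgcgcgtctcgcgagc
ETFB: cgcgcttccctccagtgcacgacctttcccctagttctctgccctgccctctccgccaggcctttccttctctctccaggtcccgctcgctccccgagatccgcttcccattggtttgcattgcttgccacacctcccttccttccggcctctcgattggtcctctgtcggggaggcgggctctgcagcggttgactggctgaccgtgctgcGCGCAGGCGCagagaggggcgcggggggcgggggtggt

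Of 4 peroxisomal genes, 3 rose and 1 was not called. ABCD3, the membrane transporter that admits branched and dicarboxylic acyl-CoA, lay between 8.40 and 8.88 (median 8.80) with MOTS-c at 72 h and between 7.90 and 8.54 (median 8.06) in controls. The lowest MOTS-c array lay below the highest control array, and the log2 fold change was 0.62 (SE 0.10, limma adjusted p = 1.90e-05). HSD17B4, the multifunctional hydratase and dehydrogenase of the peroxisome, lay between 10.55 and 10.88 (median 10.78) with MOTS-c and between 10.35 and 10.52 (median 10.49) in controls. Without overlap, the log2 fold change was 0.28 (SE 0.065, limma adjusted p = 0.000852). ACAA1, the peroxisomal thiolase, lay between 7.76 and 8.24 (median 7.92) with MOTS-c and between 7.52 and 8.0 (median 7.72) in controls. Its log2 fold change of 0.22 (SE 0.088, limma adjusted p = 0.0408) was the least secure of the 18 calls. It was lost when any one of control replicates 1 to 5 or MOTS-c replicates 1 to 3 of 72 h was left out (limma adjusted p between 0.0507 and 0.125). ACOX3, an oxidase of branched acyl-CoA, had -0.030 (95% interval -0.22 to 0.16).

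ABCD3 rose and its upstream window holds 1 NRF-1 match, so the window is shown with the match in capitals. It is chr1:94418139-94418388 on the plus strand of GRCh38.p14, from RefSeq:
ABCD3: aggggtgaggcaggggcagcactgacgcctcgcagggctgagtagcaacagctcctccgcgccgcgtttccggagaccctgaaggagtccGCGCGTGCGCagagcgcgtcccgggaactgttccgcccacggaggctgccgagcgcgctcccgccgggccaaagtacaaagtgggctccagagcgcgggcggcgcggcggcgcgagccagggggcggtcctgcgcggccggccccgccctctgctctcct

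ACOT2, the mitochondrial thioesterase that releases free long-chain acids from acyl-CoA, had the largest change of the 33 genes. It lay between 8.05 and 8.19 (median 8.14) on the 72 h MOTS-c arrays and between 8.78 and 9.21 (median 8.98) on the control arrays. The groups were far apart, and the log2 fold change was -0.86 (SE 0.10, limma adjusted p = 1.66e-07), a 1.82-fold lower level. ACOT1, its cytosolic and near-identical neighbour on chromosome 14, had -0.68 (SE 0.082, limma adjusted p = 2.02e-07), and ACOT4, a peroxisomal member of the same gene cluster, had -0.97 (SE 0.096, limma adjusted p = 6.46e-09). Because ACOT1 and ACOT2 share most of their sequence, which of them the probes report is uncertain.

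**Figure D3:**
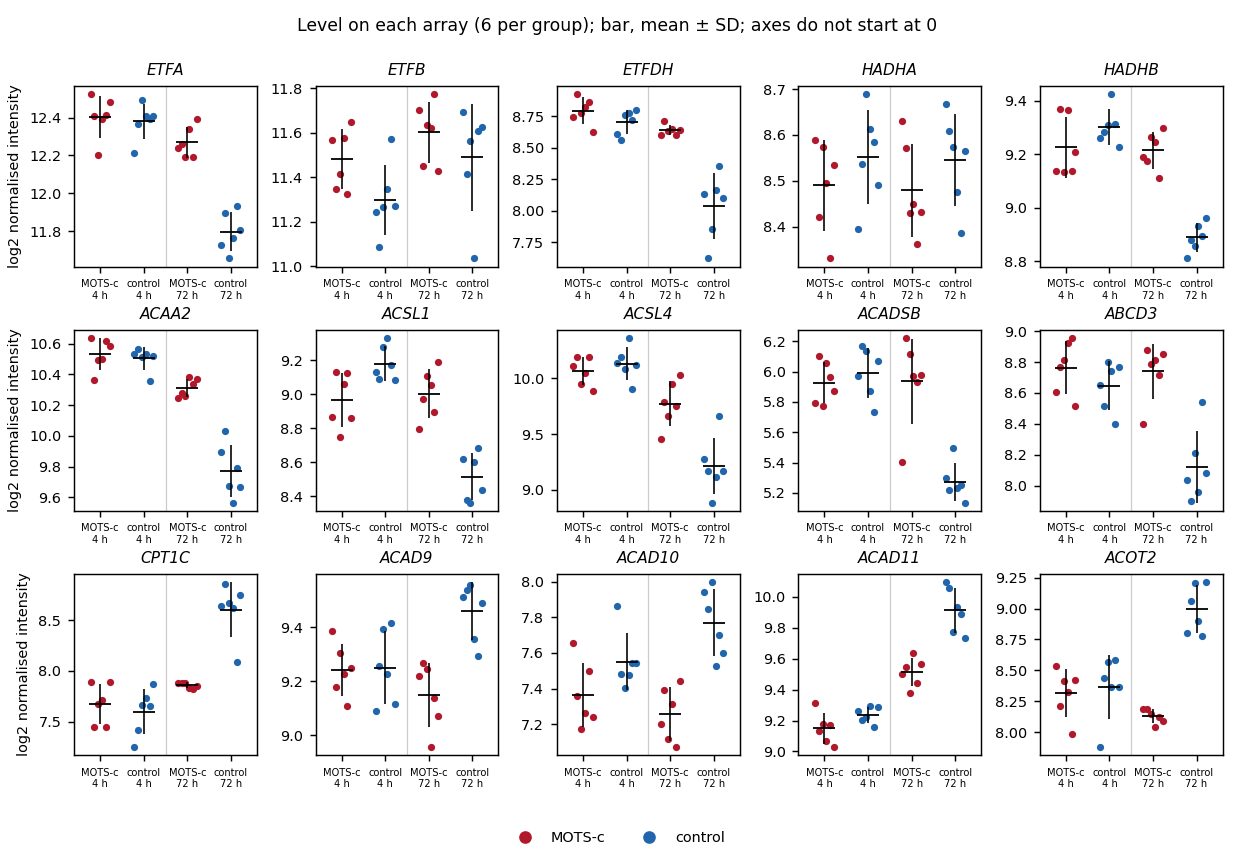
Log2 normalised intensity (vertical axes, not starting at 0) on each of 6 arrays per group for 15 of the genes, with MOTS-c in red to the left of control in blue at each time and bars for mean and SD. At 72 h the MOTS-c arrays of ETFA, ETFDH, HADHB, ACAA2 and ACSL1 all lie above the control arrays, those of CPT1C, ACAD9, ACAD10, ACAD11 and ACOT2 all lie below, and those of ETFB and HADHA overlap.

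The comparison at 4 h asks what changed soon after addition. Of the 33 genes, 0 were called by limma, against 0.00753% of all genes (1 of 13283). At an unadjusted p under 0.05, limma found 5 of the 33 genes, or 15.2%, against 11.8% of all genes. CPT1B had the largest value, with levels between 6.15 and 6.86 (median 6.36) in MOTS-c cells and between 5.77 and 6.46 (median 5.94) in controls. Its log2 fold change was 0.42 (SE 0.13, limma adjusted p = 0.250), and all 6 MOTS-c arrays lay above the control mean. ECI1 had 0.23 and ACAD8 had 0.15, while ACSL1 and ECI2 each had -0.22, with adjusted p between 0.250 and 0.410 in limma for these 5 genes. The other kept probes of ECI2 and ACAD8 ran the opposite way at 4 h, at 0.11 for ECI2 and -0.22 for ACAD8, and neither passed (limma adjusted p = 0.517 for ECI2 and 0.610 for ACAD8, over all probes). ACSL1, with 1 probe, was below the control mean on 6 of 6 MOTS-c arrays at 4 h and above it on 6 of 6 at 72 h. The 33 log2 fold changes at 4 h lay between -0.22 and 0.42, with a median of -0.0072 beside -0.0034 over all genes.

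The interaction tested if MOTS-c acted differently at the later time. It is the log2 fold change at 72 h minus that at 4 h. It was called for 15 of the 33 genes, or 45.5%, against 34% of all genes. It was positive for 11 genes, or 33.3%, against 16.7% of all genes, and negative for 4 genes, or 12.1%, against 17.4%. Among the positive differences were ACSL1 with 0.70 (SE 0.11, limma adjusted p = 2.93e-05) and ACADSB with 0.73 (SE 0.14, limma adjusted p = 0.000326). The ACADSB value rests on 72 h controls detected on 1 of 6 arrays and ran from 0.44 to 0.84 over the alternatives and left-out arrays. Among the negative ones were CPT1C with -0.82 (SE 0.15, limma adjusted p = 0.000165) and ACOT2 with -0.81 (SE 0.15, limma adjusted p = 0.000109). The other positive genes were ACSL4, ACADM, HADHB, HADH, ACAA2, ECI2, ETFA, ETFDH and ABCD3, and the other negative genes were ACAD9 and ACAD11. With median scaling in place of quantile normalisation the split was 12 positive to 2 negative, and ACAD9 (-0.22, limma adjusted p = 0.0858) and ACAD11 (-0.22, limma adjusted p = 0.101) were not called. With the mean of its probes ACSL4 was not called either (0.36, limma adjusted p = 0.0837). HADH lost its call in 8 of 24 fits that left out 1 array (limma adjusted p between 0.0508 and 0.0650). These were the fits without control replicate 3 or 4 of 4 h, MOTS-c replicate 4 of 4 h, control replicate 2 or 3 of 72 h, or MOTS-c replicate 2, 3 or 6 of 72 h. Among the genes called at 72 h, the difference between times did not pass for ACAD10 (-0.32, limma adjusted p = 0.0627), HSD17B4 (0.23, limma adjusted p = 0.0534) and ACAA1 (0.18, limma adjusted p = 0.288). ACAD10 passed in 5 of 24 fits that left out 1 array (limma adjusted p between 0.0218 and 0.0466), which were those without control replicate 1 or MOTS-c replicate 3 of 4 h, or control replicate 4 or 6 or MOTS-c replicate 6 of 72 h. HSD17B4 passed in 6 such fits (limma adjusted p between 0.0190 and 0.0489), those without control replicate 5 or MOTS-c replicate 2 or 4 of 4 h, or control replicate 5 or MOTS-c replicate 1 or 5 of 72 h. ECI1, which was not called at 72 h, had a difference of -0.28 (SE 0.12, limma adjusted p = 0.0819). It passed in 3 such fits (limma adjusted p between 0.0193 and 0.0460). These were without control replicate 3 or 5 of 4 h, or control replicate 5 of 72 h.

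The levels at 4 h and 72 h were also compared within each arm. In MOTS-c cultures 10 of the 33 genes changed between 4 h and 72 h, or 30.3%, against 38.1% of all genes. Of these, 2 were higher at 72 h (19.9% of all genes were) and 8 were lower (18.2% of all genes were). In control cultures 23 of the 33 genes changed, or 69.7%, against 62.6% of all genes, with 7 higher at 72 h (31.9% of all genes) and 16 lower (30.7% of all genes). The MOTS-c and control changes over time come from different arrays, and their difference is the interaction above. They share arrays with the comparisons at 4 h and 72 h, so the values below are set side by side only.

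ETFA changed by -0.13 (SE 0.063, limma adjusted p = 0.0949) from 4 h to 72 h in MOTS-c cultures and by -0.58 (SE 0.063, limma adjusted p = 9.74e-09) in control cultures. ETFDH changed by -0.15 in MOTS-c cultures and by -0.67 in controls, and HADHB by -0.011 in MOTS-c cultures and by -0.41 in controls. ACSL1 was 0.038 higher at 72 h than at 4 h in MOTS-c cultures and 0.67 lower in controls. For these 4 genes the control change passed the threshold and the MOTS-c change did not, and the difference between arms passed in the interaction. Without MOTS-c replicate 3 of 4 h the ETFA change in MOTS-c cultures passed as well (limma adjusted p = 0.0304). ACAA2 was lower at 72 h in both arms, by 0.22 in MOTS-c cultures and by 0.73 in controls.

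Genes lower with MOTS-c at 72 h ran the other way in time in control cultures and in both directions in MOTS-c cultures. CPT1C changed by 0.18 (SE 0.11, limma adjusted p = 0.196) in MOTS-c cultures and by 1.01 (SE 0.11, limma adjusted p = 9.66e-09) in controls. ACOT2 changed by -0.19 in MOTS-c cultures and by 0.63 in controls, and ACAD11 by 0.36 in MOTS-c cultures and by 0.68 in controls, where it passed in both arms. ACAD9 changed by -0.093 in MOTS-c cultures and by 0.21 in controls. ACAD10 changed by -0.11 in MOTS-c cultures and by 0.22 in controls, and the control value lost its call in 15 of 24 fits that left out 1 array (limma adjusted p between 0.05 and 0.129). It was kept without control replicate 1 or MOTS-c replicate 1, 3 or 5 of 4 h, and without control replicate 4, 5 or 6 or MOTS-c replicate 5 or 6 of 72 h.

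Some genes moved with time in both arms and were not called for MOTS-c at either time. From 4 h to 72 h CPT2 fell by 0.45 in MOTS-c cultures and by 0.44 in controls, ECHS1 by 0.37 in MOTS-c cultures and by 0.32 in controls, and DECR1 by 0.36 in MOTS-c cultures and by 0.38 in controls. Each of these 6 changes passed in limma. The interaction values were -0.0079 for CPT2, -0.049 for ECHS1 and 0.017 for DECR1, with SEs of 0.079, 0.094 and 0.090. CRAT was the other gene higher over time in MOTS-c cultures, at 0.48 (SE 0.15, limma adjusted p = 0.0114), beside 0.20 in controls, which was not called. It was detected on 5 of 6 MOTS-c arrays at 4 h, and replicate 3 was the lowest of that group, at 5.35. Across the 5 comparisons, CPT1A, CPT1B, ACADVL, ACADS, ACAD8, HADHA, HSD17B10, ETFB and ACOX3 were never called in this fit. The smallest limma adjusted p among them was 0.0841, for ETFB over time in controls. Dimmer kept probes of CPT1A (-0.30, limma adjusted p = 0.0155) and ACAD8 (-0.46, limma adjusted p = 0.0166) passed over time in controls, over all probes. ETFB passed there without control replicate 5 of 4 h or 4 of 72 h (limma adjusted p between 0.00518 and 0.0290). ACAD8 passed there without control replicate 3 of 4 h or 1 of 72 h (limma adjusted p between 0.0315 and 0.0422). CPT1A passed there without control replicate 2 of 4 h (limma adjusted p = 0.0243).

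**Figure D4:**
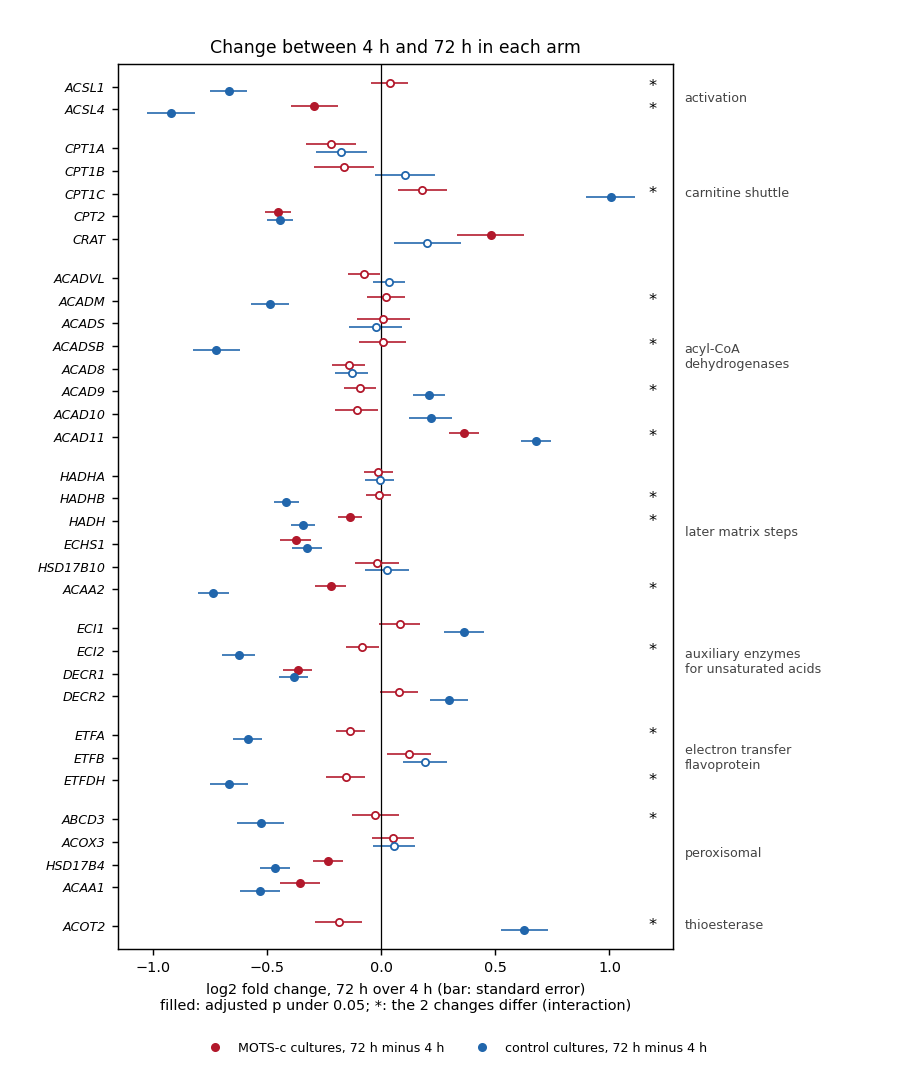
Log2 fold change of 72 h over 4 h (horizontal axis, bars are SE) for each of the 33 genes in MOTS-c cultures (red) and control cultures (blue), with filled circles past the adjusted threshold and an asterisk where the arms differed in the interaction. Of the control circles 23 are filled and of the MOTS-c circles 10, and 15 genes carry an asterisk.

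Promoter windows of 250 bases before to 50 bases after the start were found in the RefSeq table of GRCh38.p14 for 26 of the 33 genes. They were searched on both strands for motifs of factors known to act on this pathway or on mitochondrial genes. A gene was counted if any of its windows held the motif. The half-site of the oestrogen-related receptors, TNAAGGTCA, was found for 0 of the 26 genes, against 1.17% of all 27305 genes searched. The PPAR-RXR direct repeat was found for 0 of 26, against 0.0293%. The NRF-1 palindrome matched 3 of 26 (11.5%, against 6.98% of all genes), which were ABCD3, ACAD9 and ETFB. The cAMP response element TGACGTCA matched 2 of 26 (7.69%, against 2.25%), ACAD9 and ACOX3. The E-box CACGTG matched 1 of 26 (3.85%, against 8.77%), ACAD9. In the ACAD9 window the first bases of the matches lie at -196 and -46 for NRF-1, -158 for CRE and -125 for the E-box, counted from the start, and none of them overlap. The NRF-1 holders thus included 1 gene that rose, 1 that fell and 1 that was not called. A match describes letters only. No windows were found for ETFDH, CPT1B, CRAT, ACAD11, DECR1, DECR2 and ACAA1.

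Genes that supply or adjoin the pathway were compared through 15 lists of 136 genes, of which 101 were measured. At 72 h, 34 of the 101 were higher and 28 lower with MOTS-c, against 22.1% of all genes higher and 22.9% lower, and the counts of each list below stand beside those same shares. At 4 h limma called 0 of the 101. The median log2 fold change of the 101 genes at 72 h was 0.046, beside 0.0062 over all genes. Fatty acid uptake and binding had 0 higher and 4 lower of 6 measured, among them SLC27A5 (-0.40), SLC27A3 (-0.34) and FABP5 (-0.27), which are acyl-CoA synthetase transporters and a binding protein. The FABP5 call was lost with the mean of its probes (limma adjusted p = 0.0653). Carnitine supply had 2 higher of 5, CROT (0.61), the peroxisomal carnitine octanoyltransferase, and SLC22A5 (0.17), the carnitine importer.

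The supply of flavin, the cofactor of ETF and of the acyl-CoA dehydrogenases, had 1 higher and 2 lower of 4 measured. FLAD1, which makes FAD, had a log2 fold change of -0.71 (SE 0.062, limma adjusted p = 6.83e-10), and SLC52A2, a riboflavin transporter, had -0.47 (SE 0.079, limma adjusted p = 2.28e-05). RFK, the riboflavin kinase one step before FLAD1, had 0.26 (SE 0.089, limma adjusted p = 0.0195). Other dehydrogenases that reduce ETF had 0 higher and 2 lower of 4, which were IVD of leucine breakdown (-0.82) and GCDH of lysine breakdown (-0.76). Ubiquinone synthesis, whose product accepts electrons from ETFDH, had 1 higher and 5 lower of 11, with COQ5 (-0.50), COQ2 (-0.41) and COQ8B (-0.65) at the smallest p. These lists adjoin ETFA and ETFDH, which rose, as given above.

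Other peroxisomal oxidation had 4 higher and 1 lower of 6. PECR, a peroxisomal enoyl-CoA reductase, had 0.64 (SE 0.051, limma adjusted p = 1.38e-10), HACL1 of alpha-oxidation had 0.42 (SE 0.059, limma adjusted p = 2.11e-06), and PHYH of the same route had 0.31 (SE 0.064, limma adjusted p = 0.000323). Peroxisome assembly was mixed, with 2 higher and 3 lower of 11, led by PEX16 (-0.53), PEX7 (-0.35) and PEX6 (0.30). Branched-chain keto acid oxidation had 7 higher and 0 lower of 12, against 22.1% and 22.9% of all genes, among them HIBADH (0.39), BCKDHB (0.57) and HIBCH (0.52). Propionate metabolism had 3 higher and 2 lower of 6, with MCEE (-0.52), PCCB (0.50) and MMUT (0.38), and ketone bodies had 2 higher of 2, ACAT1 (0.28) and OXCT1 (0.34).

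Thioesterases other than ACOT2 had 3 higher and 2 lower of 8, with ACOT4 and ACOT1 as given above and ACOT9 at 0.41. The other acyl-CoA synthetases had 1 higher and 2 lower of 5, which were ACSS2 (0.27), ACSM3 (-0.55) and ACSF2 (-0.20). For malonyl-CoA, the inhibitor of carnitine palmitoyltransferase, ACACB, the mitochondrial carboxylase, had -0.29 (SE 0.059, limma adjusted p = 0.000194) and ACACA, the cytosolic form, had 0.15 (SE 0.061, limma adjusted p = 0.0478), while MLYCD was not called, at -0.025. Among 10 regulators, 3 were higher and 2 lower, led by PPARGC1B (-0.52), RXRA (0.38) and PPARA (0.49). Other targets of the fasting program had 4 higher and 2 lower of 8, led by UCP2 (-0.79), HMGCS1 (0.52) and PDK4 (0.58). Of the 41 genes named from these lists, 36 kept their call under every alternative and without each array, and the exceptions were SLC22A5, ACACA, RFK, ACSF2 and FABP5.

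**Figure D5:**
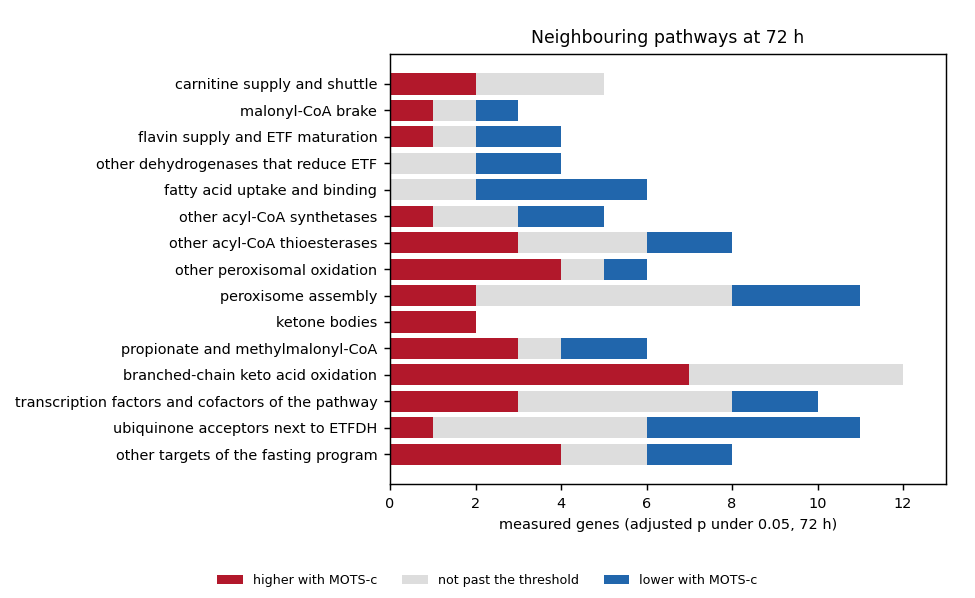
Number of measured genes (horizontal axis) in each of 15 lists beside the pathway that were higher with MOTS-c (red), not called (grey) or lower (blue) at 72 h. Fatty acid uptake had 0 higher and 4 lower of 6, and branched-chain keto acid oxidation had 7 higher and 0 lower of 12.

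Gene length moved with the 72 h comparison across all genes, and the values are given as a description. Spearman's rho between log2 fold change and gene length was 0.235 over 13272 genes at 72 h and -0.166 at 4 h, where genes share arrays and are not independent. The median gene length was 45527 bases for the 13 genes that rose, 33495 bases for the 5 that fell, 14183 bases for the 15 not called and 27900.5 bases for all genes. The part of length in the results was not tested.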

How the data were processed

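RNA of 24 HEK293 samples was measured on Illumina bead arrays, 6 per group. The authors deposited a table of non-normalized probe intensity with a detection p-value for each probe and array, exported with GenomeStudio 2011.1 per the submitters' processing notes. They also deposited a score for each probe and array, a Z score of log10 intensity. Recomputing it from the deposited intensity differed by at most 5.00025e-10.

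From the intensity, background was corrected by neqc in limma 3.58.1 (R 4.3.3), using the detection p-values and an offset of 16, followed by quantile normalisation and log2. Probes with detection p under 0.05 on at least 6 of 24 arrays were kept, which left 23931 of 47323, of which 17873 named 1 gene. The brightest kept probe stood for each of 13283 genes. Probe symbols came from the platform annotation and were updated through Entrez identifiers to RefSeq. A means model over the 4 groups was fitted with lmFit and eBayes (20 residual and 6.43 prior degrees of freedom), and p-values were adjusted by Benjamini-Hochberg over all genes. The model fit was tried on simulated data in which genes varied independently and few were shifted. The 72 h comparison called 45.1% of all genes, so the simulation does not match it. Figures used Python 3.11.15, pandas 2.3.3 and matplotlib 3.10.9.

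All 33 genes are named. Full values are given for those called at 72 h, at 4 h or between times, and of the adjoining lists up to 3 called genes each, by smallest p. The genes and lists were chosen with earlier results of these data known. Replicate numbers did not pair the arrays: deviations of same-numbered arrays had r from -0.23 to 0.093 (4 h) and from -0.15 to 0.16 (72 h). Alternatives in normalisation, background, filter, probe choice, model and left-out arrays were tried. The build behind the probe annotation is not given in the sources used here, and coordinates are RefSeq's on GRCh38.p14.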

Additional observations from a re-analysis of the deposited data

Results flagged for a closer look

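In 9 of 132 sets of 6 arrays, each a gene in a group, the highest or lowest array stood apart from the others by more than Dixon's 95% critical value for the gap's share of the whole range. Chance gives about 1 in 20 such sets. Among 72 h MOTS-c arrays, replicate 1 was low for ACADSB (log2 level 5.40) and for ABCD3 (8.40), and replicate 2 was high for ACAD8 (8.61). Among 72 h control arrays, replicate 5 was low for CPT1C (8.08) and replicate 1 was low for HSD17B4 (10.35). Among 4 h control arrays, replicate 1 was high for ACAD10 (7.86) and low for ACAA1 (7.99) and ACOT2 (7.88), and replicate 5 was low for ACAA2 (10.36). The calls of ACADSB, ABCD3, CPT1C, HSD17B4, ACAD10, ACAA2 and ACOT2 at 72 h held without each array in turn.

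The effect of MOTS-c at 72 h differed from that at 4 h for 15 genes in the limma interaction. The difference was positive for ACSL1 (0.70), ACSL4 (0.63), ACADM (0.51), ACADSB (0.73), HADHB (0.40), HADH (0.21), ACAA2 (0.51), ECI2 (0.54), ETFA (0.45), ETFDH (0.51) and ABCD3 (0.50). It was negative for CPT1C (-0.82), ACAD9 (-0.30), ACAD11 (-0.31) and ACOT2 (-0.81). ECI2 and ACADM had further probes that did not pass: the second ECI2 probe had 0.08 (limma adjusted p = 0.542 over all probes) and the second ACADM probe 0.30 (limma adjusted p = 0.0891 over all probes).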

How the results depend on the processing

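No value that was called turned its sign under 15 alternative settings or without any of the 24 arrays. At 72 h the count of called genes among the 33 was between 16 and 19 over the settings, and 17 to 19 without 1 array. Of the 18 calls, 15 held under every setting. The exceptions were ACSL4 with the mean of its probes (limma adjusted p = 0.0770), HADH with the replicate block (0.0536) and at a threshold of 0.01, and ACAA1 at that threshold, with no detection filter (0.0542), with only the groups compared (0.0588) and with array weights (0.055). The median at 72 h lay between 0.064 and 0.1324 over the settings, and between 0.05617 and 0.1529 without 1 array. At 4 h 0 of the 33 genes were called by limma under each setting and without each array. The interaction gave 13 to 17 genes over the settings and 14 to 17 without 1 array. HSD17B4 was gained there in 12 of 14 settings, ACAD10 in 3, and ECI1 with array brightness as a covariate. HADH was lost there with the replicate block (0.0955). At 72 h DECR2 was gained in 6 settings and CRAT in 2. The change over time in MOTS-c cultures gave 6 genes at an adjusted p under 0.01, up to 11 under other settings, and 8 to 10 without 1 array. Without 1 array it was lost for ACSL4 in 4 fits (MOTS-c replicate 2 or 5 of 4 h, 1 or 3 of 72 h) and for HADH in 8 (MOTS-c replicate 1, 2, 3 or 6 of 4 h, 1, 3, 4 or 5 of 72 h). With array brightness as a covariate, ACSL4, CRAT, HADH, ACAA2 and HSD17B4 lost that call. The change over time in controls gave 21 to 25 genes, and 22 to 24 without 1 array. The adjoining genes gave 47 to 70 calls, and 55 to 64 without 1 array. The cause of these changes was not tested.

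With the replicate block within time, 18 genes were called at 72 h (13 higher, 5 lower), 16 in the interaction and 0 at 4 h; the same-numbered array was the best match for 0 of 6 arrays at 4 h and 1 of 6 at 72 h. The block could not be used between times, and a chip block was not run because no chip is given. The alternatives for adjoining genes, changes over time by gene and subunit pairs were chosen after seeing the data. The difference between HADHB and HADHA lay between 0.3523 and 0.4275, and that between ETFA and ETFB between 0.3008 and 0.4450. Signal over background limits ACADSB and CPT1A.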
